A study of Aspergillus nidulans with 48 samples.

Results

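The transcriptome of *A. nidulans* conidia formed on menadione sodium bisulfite (MSB) was compared between the libraries labelled Δ*atfB* and those of the control strain. The comparison rests on 6 libraries, 3 labelled Δ*atfB* and 3 of the control, chosen by their labels from the 48 libraries of the study. In these conidia 144 genes were downregulated and 56 upregulated, out of 10143 tested. The libraries labelled Δ*atfB* still carried reads of *atfB* itself, so they are called by their label throughout.

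The study sequenced RNA from mycelia and conidia of 2 single mutants (Δ*atfA*, Δ*atfB*), their double mutant and the control strain THS30.3, each with and without MSB, in 3 libraries per group. Both groups compared here were surface cultures 3 days old, grown on nitrate minimal medium agar with MSB, for which the labels print a dose of 0.04 Mm. Conidia were washed off the cultures, and centrifugation and filtering separated them from the vegetative tissue. In each group, replicates 1 and 2 carry the label batch 1 and replicate 3 the label batch 2, which the methods describe as separate experiments. The sources used here do not give the auxotrophic markers of the strains, how many transformants each mutant stands for, or whether replicates within a batch came from separate cultures, so the p-values measure the spread between these libraries.

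AtfB and AtfA are basic leucine zipper (bZIP) transcription factors of the ATF/CREB family, which bind DNA as dimers. In the aspergilli, factors of this family act downstream of the stress-activated HOG kinase pathway and in asexual spores, whose coats, compatible solutes and antioxidative enzymes are prepared before germination. MSB is a water-soluble form of menadione, a quinone that cycles between redox states in the cell and so generates superoxide.

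The 6 libraries held 8426329 to 22425861 counted reads, namely 10805369, 18178307 and 22425861 in those labelled Δ*atfB* and 8426329, 16401464 and 19179385 in the control. Levels are given as scaled RPKM, the deposited RPKM (reads per kilobase of gene, normalised to library size) divided by the library's relative log expression factor, and listed for replicates 1, 2 and 3. These factors were 0.941, 0.940 and 0.870 in the libraries labelled Δ*atfB*, against 0.738, 0.756 and 0.765 in the control, and the 20 most abundant genes took 11.3 to 11.7% of the reads, against 12.9 to 14.4%. Without the factors, the median gene lay 0.27 higher on the log2 scale in the libraries labelled Δ*atfB*, and a limma fit on deposited RPKM called 57 genes lower and 186 higher. All fold changes below are edgeR log2 fold changes ± SE, labelled Δ*atfB* over control, and a gene was called, or said to have risen or fallen, where its log2 fold change exceeded 1 in size with an adjusted p under 0.05. The *rodA* gene, which encodes the rodlet hydrophobin of the spore coat, was abundant in both groups. It stood at 22176, 23163 and 8483 scaled RPKM in the libraries labelled Δ*atfB*, against 26592, 26166 and 15074 in the control. This gene alone does not measure the share of conidia in a library.

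The targeted gene was read first. The *atfB* gene (AN8643) stood at 139, 200 and 296 scaled RPKM in the libraries labelled Δ*atfB*, against 342, 326 and 392 in the control. All 3 labelled libraries lay below all control libraries, with replicate 1 lowest, yet none came near 0. On this scale the groups did not overlap in 24% of all genes tested. On deposited RPKM the groups overlapped, with 131, 188 and 257 in the libraries labelled Δ*atfB* and 253, 246 and 300 in the control, although in each of the 3 pairs with the same replicate number the labelled library was the lower one. The mean of 192 ± 63.3 RPKM was then 72.2% of the control's 266 ± 29.4 (SD, n = 3 each; two-sided exact permutation test, p = 0.3, smallest possible 0.1). On CPM (reads per library total, put on a common scale) divided by the factors it was 59.9% (exact permutation p = 0.1). The edgeR log2 fold change of *atfB* was −0.79 ± 0.28, with an adjusted p of 0.142 (0.164 with a replicate block). For scale, on the same medium *atfB* had 15.1, 14.2 and 48.7 scaled RPKM in the libraries labelled Δ*atfA*, and 1.71, 1.85 and 2.43 in those labelled Δ*atfA*Δ*atfB*.

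AN6798 was low in the libraries labelled Δ*atfB* but not in those of the other mutants. It had 1.21, 1.75 and 3.53 scaled RPKM in the libraries labelled Δ*atfB*, against 55.7, 55.5 and 65.9 in the control. The groups lay far apart, and the log2 fold change was −4.77 ± 0.26 (edgeR, adjusted p = 7.91e-10). In the other MSB-treated mutants AN6798 stayed near the control's level, at 44.7, 46.3 and 45.5 scaled RPKM in Δ*atfA* and 53.6, 49.8 and 44.7 in Δ*atfA*Δ*atfB*. The low level of AN6798 recurred under the label Δ*atfB* in untreated conidia (log2 fold change −3.87) and in MSB-treated mycelia, where the level was 0.233, 0.0931 and 0.271 scaled RPKM in Δ*atfB*, against 57.6, 52.5 and 55.3 in the control. The *atfA* gene (AN2911) was at 285, 294 and 491 scaled RPKM in the libraries labelled Δ*atfB*, against 405, 408 and 571 in the control, and the groups overlapped (log2 fold change −0.40, edgeR adjusted p = 0.471). It stood at 8.93, 11.6 and 22.8 scaled RPKM in those labelled Δ*atfA*.

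**Figure D1:**
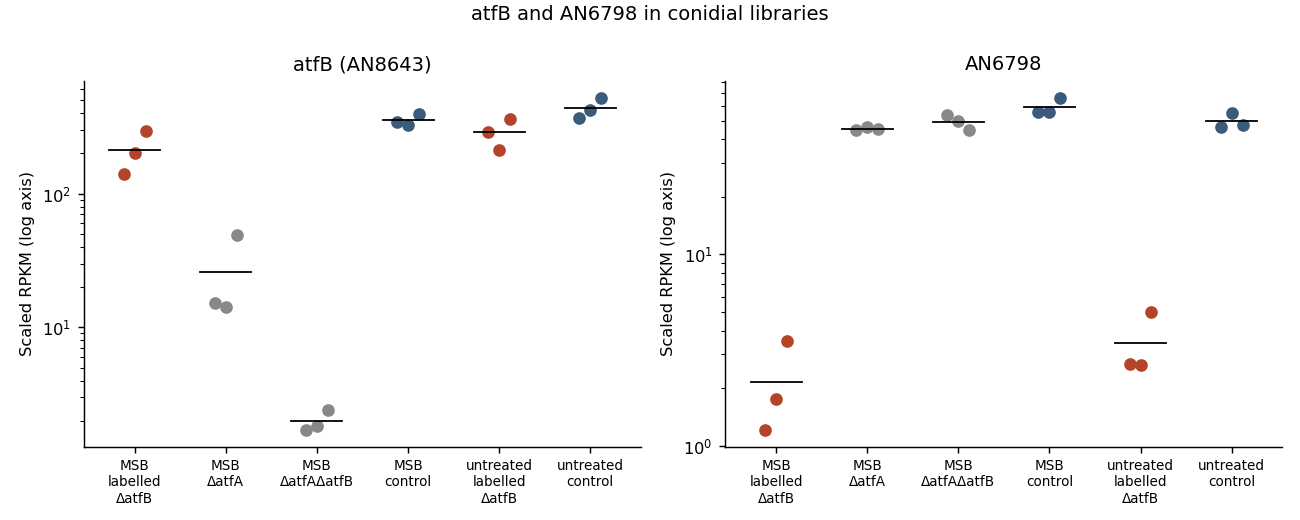
Scaled RPKM of *atfB* (left) and AN6798 (right) on a log axis in conidial libraries, 1 point per library with a bar at the group mean, by treatment and strain label. The MSB-treated libraries labelled Δ*atfB* keep 139 to 296 scaled RPKM of *atfB*, against 326 to 392 in the control, while their AN6798 lies at 1.21 to 3.53, against 55.5 to 65.9.

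Neighbours of both genes were read next. Over all genes tested, 1.42% fell, 0.552% rose and the median log2 fold change was 0.00. Of 14 tested genes numbered around *atfB*, itself included, 1 fell and none rose, with a median log2 fold change of −0.31. The one that fell was AN8639, annotated as a trehalose-phosphate synthase. AN8644, which follows *atfB*, had 24.3, 31.4 and 22.6 scaled RPKM in the libraries labelled Δ*atfB*, against 13.8, 15.2 and 14.4 in the control, a separation below the fold limit (log2 fold change 0.85 ± 0.18, edgeR adjusted p = 0.00852). Around AN6798, 2 of 13 tested genes fell, and the median was 0.06. These were AN6798 itself, for which the region was chosen, and AN6793 (log2 fold change −1.11 ± 0.16, edgeR adjusted p = 0.00049). AN6793 fell just under the fold limit without control replicate 3, at −0.99.

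Across the transcriptome, 200 of 10143 genes were called, which is 1.97% of those tested, with 56 higher (0.552%) and 144 lower (1.42%). The median log2 fold change over all genes was 0.00. At an adjusted p below 0.05 alone 408 genes passed, and 1751 had an unadjusted p below 0.05. The downregulated genes were mostly well transcribed ones with moderate changes, and the upregulated genes mostly weak ones with larger changes. The mean of the higher group had a median of 73.8 deposited RPKM among the downregulated genes and of 6.51 among the upregulated ones. The median log2 fold change was −1.30 in those that fell and 2.05 in those that rose, and 32 of the 56 upregulated genes stayed under 10 deposited RPKM in both group means, against 19 of the 144 downregulated ones. The counts moved with single libraries. Without the labelled replicate 1 or 2, 90 or 78 genes were lower, and without control replicate 1 or 2, 94 or 93. Without labelled replicate 2, control replicate 1 or control replicate 2, 34, 30 or 26 genes were higher. Batch 1 alone, with 2 libraries per group, gave 337 lower and 189 higher.

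**Figure D2:**
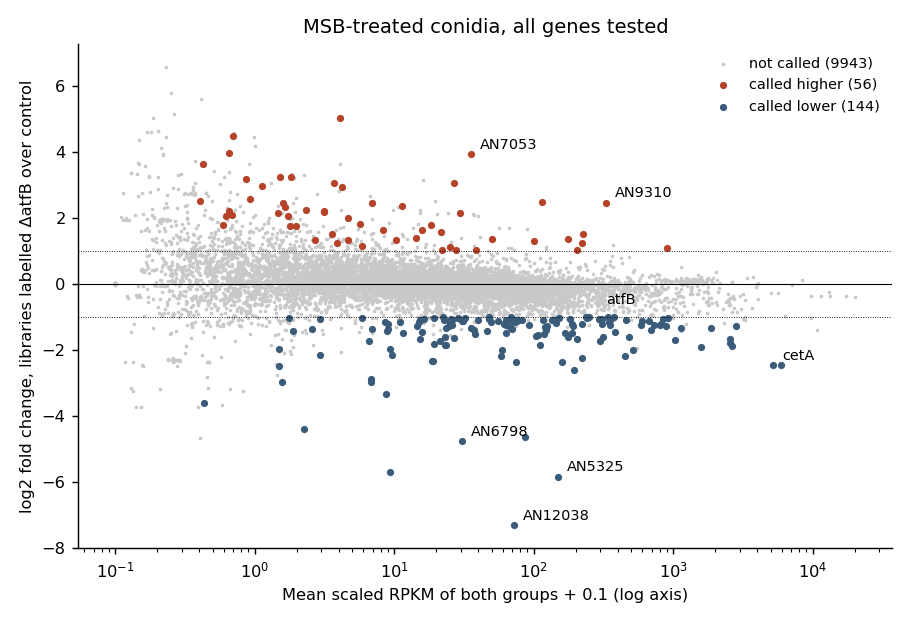
edgeR log2 fold change, labelled Δ*atfB* over control in MSB-treated conidia, against the mean scaled RPKM of both groups on a log axis, 1 point per gene tested, with dotted lines at the fold limit. The 144 genes called lower spread over high levels down to AN12038 at −7.31, the 56 called higher lie mostly to the left, and *atfB* sits at −0.79 among the genes not called.

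Single genes were taken as the 12 most lowered and 12 most raised among called genes that reached a group mean of 10 deposited RPKM and whose groups did not overlap. The steepest falls came in AN12038, AN5325 and AN5326. AN12038 had 0.919, 1.28 and 0.479 scaled RPKM in the libraries labelled Δ*atfB*, against 127, 127 and 175 in the control. All 3 labelled libraries held only a few reads, 3, 7 and 3, against 253, 507 and 823, and the log2 fold change was −7.31 ± 0.36 (edgeR, adjusted p = 9.05e-08). AN5325 had 5.60, 4.50 and 5.26 scaled RPKM, against 286, 257 and 341 in the control. Its labelled libraries were close together and lay far below every control library (log2 fold change −5.85 ± 0.27, edgeR adjusted p = 5.84e-11, the smallest of all genes). AN5326, the next gene, had 0.480, 0.143 and 0.438 scaled RPKM from 4, 2 and 7 reads in the libraries labelled Δ*atfB*, against 18.3, 14.3 and 21.8 from 93, 145 and 262 reads in the control (log2 fold change −5.69). AN6798, described above, came next, and after it AN3966, with 6.26, 4.86 and 8.88 scaled RPKM, against 148, 138 and 211 in the control (log2 fold change −4.63 ± 0.38). AN12038, AN5325, AN5326 and AN3966 encode proteins of unknown function, and the AN5326 transcript is known to be repressed by nitrate.

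Among the other strongly lowered genes, AN9005 is a polyketide synthase, an enzyme class that builds secondary metabolites and pigments. It had 1.14, 1.29 and 2.09 scaled RPKM in the libraries labelled Δ*atfB*, against 15.04, 15.6 and 16.2 in the control (log2 fold change −3.33 ± 0.60, edgeR adjusted p = 0.00277). Of 6 tested genes of its cluster, AN9005 alone passed the test. AN5654 had 44.2, 47.4 and 73.3 scaled RPKM, against 315, 338 and 350 in the control (log2 fold change −2.62 ± 0.22), and AN2838, AN8335 and AN7280 had log2 fold changes of −2.37, −2.37 and −2.35.

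AN11477 was the most abundant of these 12 lowered genes and had the largest SE among them. It had 1958, 3066 and 1303 scaled RPKM in the libraries labelled Δ*atfB*, against 8088, 8045 and 12955 in the control (log2 fold change −2.47 ± 0.62, edgeR adjusted p = 0.0256). The call was lost without labelled replicate 1, 2 or 3 (edgeR adjusted p = 0.124, 0.0917 and 0.0747) and without control replicate 3, when the log2 fold change was −1.53 (edgeR adjusted p = 0.137).

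**Figure D3:**
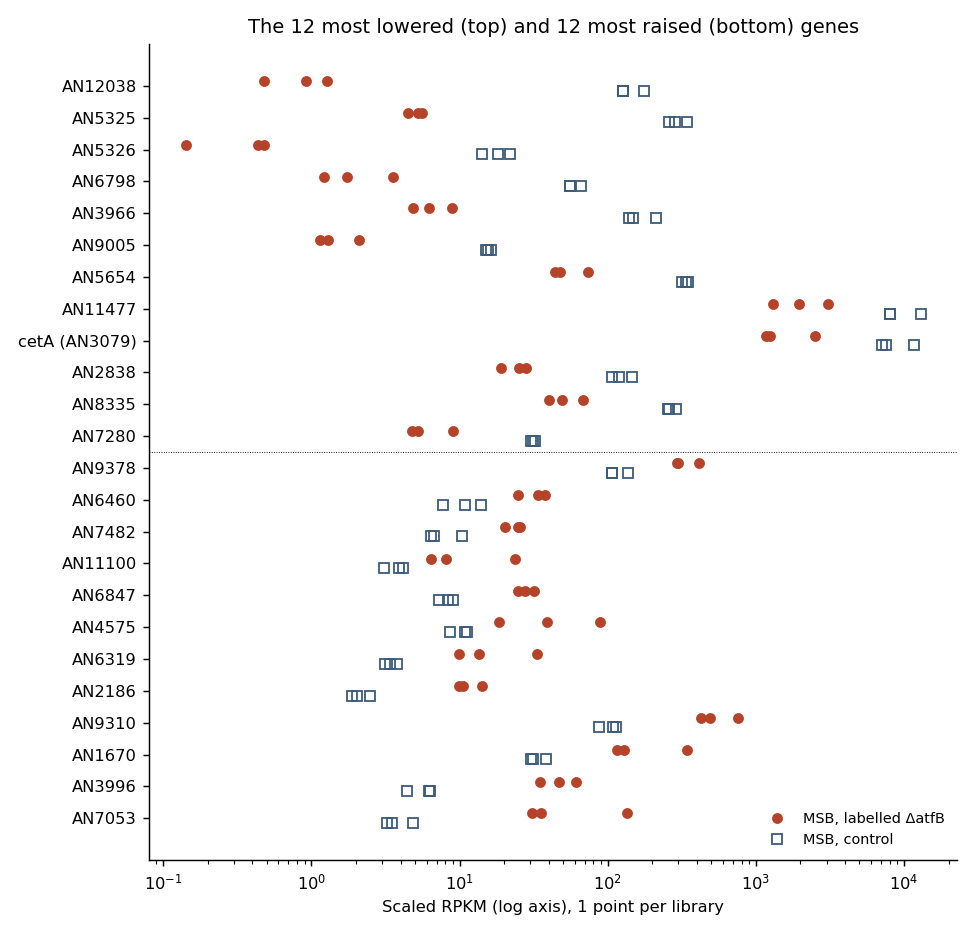
Scaled RPKM on a log axis of the 12 most lowered (top) and 12 most raised (bottom) called genes with a group mean of 10 deposited RPKM and no overlap, 1 point per MSB-treated library, with filled circles for the libraries labelled Δ*atfB* and open squares for the control. The groups do not overlap in any of the 24 genes, by the way they were chosen, and AN12038 spans 0.479 to 1.28 against 127 to 175.

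Some spore genes fell. Of 16 tested genes of the conidial coat, pigments and stored transcripts, 3 fell, beside 1.42% of all genes tested, none rose, and the median log2 fold change was −0.48, beside 0.00 over all genes. This list was chosen with earlier results of these data known. Some members, such as *catA*, *ccgA* and *cetJ*, are listed by the study as AtfA-dependent from libraries including this control. The share that fell is therefore a description only. The member with the largest fall was *cetA* (AN3079), a secreted thaumatin-like protein of the cell wall of germinating conidia, at 1165, 1247 and 2496 scaled RPKM in the libraries labelled Δ*atfB*, against 7612, 7075 and 11614 in the control. Both groups had their highest value in replicate 3, and they did not overlap (log2 fold change −2.46 ± 0.29, edgeR adjusted p = 5.21e-05). The *cetL* gene (AN9194), whose transcript is enriched in dormant conidia, had 1180, 1109 and 1405 scaled RPKM, against 3914, 3636 and 4197 in the control (log2 fold change −1.67 ± 0.29, edgeR adjusted p = 0.00224). The *dlpA* gene (AN5324), a dehydrin-like protein, lies next to AN5325 and had 566, 362 and 1092 scaled RPKM, against 1923, 1585 and 1244 in the control (log2 fold change −1.34, edgeR adjusted p = 0.0295). Its labelled replicate 3 came close to control replicate 3, and the call was lost without labelled replicate 1 or 2 (edgeR adjusted p = 0.124 and 0.208) or control replicate 1 or 2 (edgeR adjusted p = 0.167 and 0.104).

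The remaining 13 spore genes did not pass. Among them, the hydrophobin genes *rodA* and *dewA* had log2 fold changes of −0.40 and −0.37, the polyketide synthase gene *wA* of the green spore pigment −0.55, its laccase gene *yA* 0.18, and the conidial catalase gene *catA* −0.64 (edgeR adjusted p = 0.523). Summed over the 16 genes, the level was 68500 to 77200 scaled RPKM in the libraries labelled Δ*atfB* and 104000 to 108000 in the control. Markers of other cell types were summed in the same way. The sum of 9 hyphal and conidiophore markers was 551 to 1160 scaled RPKM in the libraries labelled Δ*atfB*, against 715 to 1480 in the control, and that of 6 sexual stage markers 245 to 395, against 480 to 487. None of these 15 genes was at 0 in a whole group or passed the test, with median log2 fold changes of −0.30 and −0.17, and their part in the results was not tested. In bulk RNA a smaller share of one kind of cell cannot be told apart from less RNA per cell.

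Lists of stored carbohydrate and central carbon use held 4 downregulated genes, 1 or 2 in each of 3 lists, beside the 1.42% lower over all genes tested. These lists too were chosen with earlier results known, so the shares are a description only. The list of trehalose, glycogen and mannitol enzymes, the solutes and reserves of the spore, had 2 of 10 lower, none higher and a median log2 fold change of −0.45. The study itself lists 1 of these 2, AN8639, as depending on both factors in MSB-treated conidia. AN8639, the trehalose-phosphate synthase, had 255, 215 and 426 scaled RPKM in the libraries labelled Δ*atfB*, against 631, 645 and 591 in the control, with no overlap (log2 fold change −1.09 ± 0.26, edgeR adjusted p = 0.0178). AN2815, a mannitol 2-dehydrogenase, had 639, 401 and 625 scaled RPKM, against 1186, 1109 and 1142 in the control (log2 fold change −1.05 ± 0.24, edgeR adjusted p = 0.0149). Both stand just past the fold limit. The call of AN8639 was lost without labelled replicate 1 or 2 or control replicate 1 or 2 (edgeR adjusted p from 0.0735 to 0.146), and that of AN2815 without labelled replicate 2 or control replicate 1 or 2 (edgeR adjusted p from 0.0544 to 0.123).

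Acetate use and gluconeogenesis had 1 of 13 genes lower, none higher and a median log2 fold change of −0.48. The gene was *acuL* (AN7287), a mitochondrial succinate/fumarate antiporter used in growth on acetate, with 318, 319 and 525 scaled RPKM in the libraries labelled Δ*atfB*, against 938, 1050 and 1037 in the control. All labelled libraries were well below the control (log2 fold change −1.41 ± 0.19, edgeR adjusted p = 2.0e-04). The isocitrate lyase gene *acuD* of the glyoxylate cycle passed the p limit without reaching the fold limit (log2 fold change −0.86, edgeR adjusted p = 0.00957), and the phosphoenolpyruvate carboxykinase gene *acuF* reached the fold limit only (−1.08, edgeR adjusted p = 0.0826). Glycolysis had 1 of 16 lower, none higher and a median of −0.17. This was *hxkB* (AN2638), annotated as a hexokinase, the enzyme that phosphorylates glucose, at 94.6, 66.8 and 100.7 scaled RPKM in the libraries labelled Δ*atfB*, against 263, 250 and 281 in the control (log2 fold change −1.60 ± 0.35, edgeR adjusted p = 0.0108), and without labelled replicate 2 it no longer passed (−1.44, edgeR adjusted p = 0.0901).

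Since MSB generates superoxide, antioxidative enzymes were followed as a list of 38 tested genes. Of these 1 fell and none rose, beside 1.42% lower and 0.552% higher over all genes tested. The list's median log2 fold change was −0.07, beside 0.00 over all genes. The gene that fell was AN8553, annotated as a catalase, an enzyme that breaks down hydrogen peroxide. It had 902, 1120 and 1484 scaled RPKM in the libraries labelled Δ*atfB*, against 3778, 3868 and 4235 in the control. The groups were far apart and the spread within each was small (log2 fold change −1.78 ± 0.19, edgeR adjusted p = 9.54e-06). AN8554, the next gene, fell too, at 2.41, 3.86 and 4.10 scaled RPKM, against 12.5, 13.7 and 20.7 in the control (log2 fold change −2.16). The other catalase genes did not pass, with *catB* at −0.17 and *catC* at −0.10, nor did the catalase-peroxidase gene *cpeA* at 0.12. For the superoxide dismutase genes *sodA* and *sodB* the log2 fold change was −0.21 and −0.08, for *sodM* it was 1.85 (edgeR, adjusted p = 0.115), for the peroxiredoxin gene *prxA* 0.07 and for the glutathione peroxidase gene *gpxA* −0.16. Heat shock genes had no call among 6 tested and a median of −0.36.

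Regulators were read as lists. None of 20 stress and conidiation regulators passed, with a median log2 fold change of −0.15, and the conidiation regulator gene *flbC* came nearest on the lower side at −0.96 (edgeR adjusted p = 0.0154). The velvet regulator gene *veA* (AN1052), whose protein coordinates light response and development, had 112.2, 108.96 and 111.7 scaled RPKM in the libraries labelled Δ*atfB*, against 60.6, 65.0 and 67.3 in the control. The groups were clearly separate, but the log2 fold change of 0.79 ± 0.14 was under the fold limit (edgeR adjusted p = 0.00246). Light-induced genes had no call among 13 and a median of −0.36. Most of them are genes that the study lists as AtfA-dependent from libraries including this control. Their direction is therefore no independent evidence. Of 355 listed transcription factor genes 3 fell and none rose, with a median of 0.01. Over all genes tested 1.42% fell and 0.552% rose, so this list held no larger share of calls. AN3433 was the abundant one, at 379, 373 and 531 scaled RPKM in the libraries labelled Δ*atfB*, against 1052, 976 and 1046 in the control (log2 fold change −1.26 ± 0.19, edgeR adjusted p = 7.27e-04). AN2615 changed by −1.81 and AN2672 by −2.99 on the log2 scale, the last from 2 to 21 reads per library labelled Δ*atfB*, against 43 to 81.

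Other lists held few calls. Among 355 carbohydrate-active enzyme genes 3 rose and 5 fell, with a median of 0.01, beside the 1.97% called over all genes. The 3 that rose included *amyF* (AN3388), an α-amylase at 0.956, 8.08 and 0.399 scaled RPKM in the libraries labelled Δ*atfB*, against 0.208, 0.471 and 0.133 in the control. The value of *amyF* rested on labelled replicate 2, and without it the log2 fold change was 1.41 instead of 3.23 (edgeR adjusted p = 0.456). The starch use list had no call among 9 genes (median log2 fold change 0.12), the α-1,3-glucan and mannoprotein list none among 7 (−0.30), the iron and siderophore list none among 13 (0.11), and the loci that commonly mark laboratory strains none among 8 (−0.19). Of 28 genes that the study names in its text, 3 were lower here and none higher, but those genes were picked from these same libraries and are no independent evidence of a direction. Respiration had no call among 26 genes (median log2 fold change −0.38) and the tricarboxylic acid cycle none among 34 (−0.10). The medians were also taken from the limma fit on deposited RPKM at a pseudocount of 0.1, which differs in its scaling and in its test. In that fit the median over all genes was 0.27, beside 0.00 in the main fit. Those of the spore, reserve carbohydrate, acetate, heat shock and light-induced lists stayed below 0, at −0.20, −0.17, −0.18, −0.06 and −0.09. Those of the regulators, glycolysis and antioxidative enzymes turned positive, at 0.12, 0.11 and 0.20. So did those of the tricarboxylic acid cycle (0.18), the sexual stage markers (0.13), the strain loci (0.11) and the hyphal and glucan lists (0.01 each). All of these list medians still lay below the 0.27 over all genes.

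**Figure D4:**
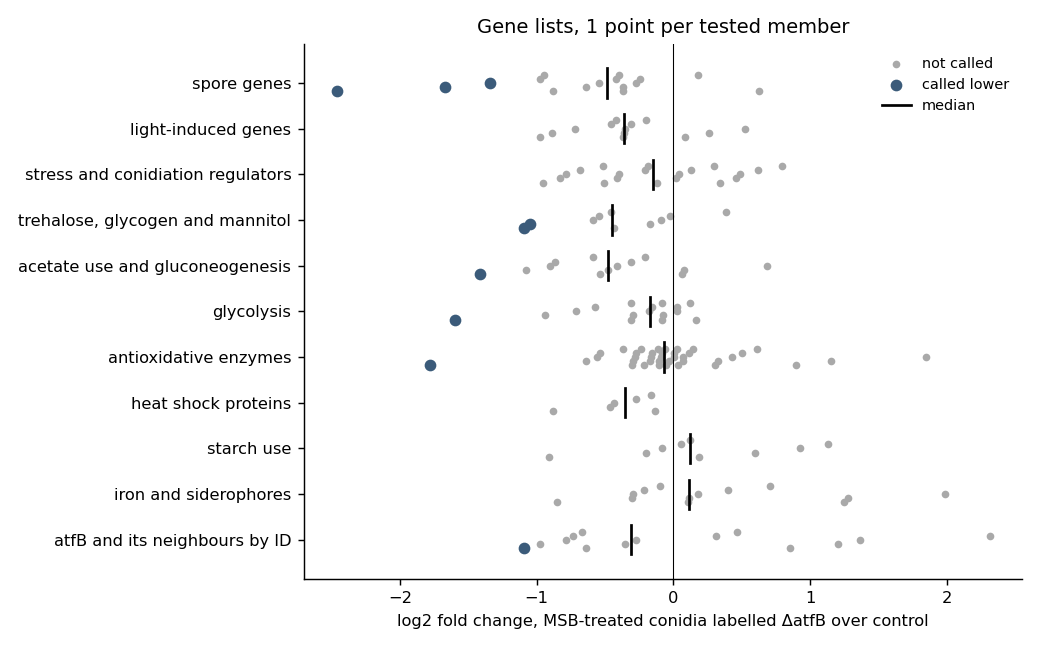
edgeR log2 fold change, labelled Δ*atfB* over control in MSB-treated conidia, for the tested members of each gene list, 1 point per gene, with filled points for genes called lower and a bar at the list's median. Spore genes show 3 calls around a median of −0.48, antioxidative enzymes 1 call around −0.07, and regulators and light-induced genes none.

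Among the 12 raised genes chosen in this way, AN7053 changed most. This gene, for which only orthologues are listed, had 30.6, 35.6 and 134 scaled RPKM in the libraries labelled Δ*atfB*, against 3.50, 3.21 and 4.86 in the control (log2 fold change 3.92 ± 0.32, edgeR adjusted p = 2.96e-07). Its labelled libraries all exceeded the control, and replicate 3 stood well above the other two. AN3996, predicted to have methyltransferase activity, had its lowest labelled value in replicate 3, at 60.8, 46.7 and 35.1 scaled RPKM, against 6.32, 6.20 and 4.39 in the control (log2 fold change 3.06 ± 0.59, edgeR adjusted p = 0.00505). AN1670 had 116, 130 and 342 scaled RPKM, against 31.4, 30.3 and 38.4 in the control (log2 fold change 2.48 ± 0.28). The most abundant upregulated gene of the 12 was AN9310, a transcript known to be induced by light, at 428, 487 and 763 scaled RPKM, against 107.9, 87.4 and 112.9 in the control (log2 fold change 2.46 ± 0.45, edgeR adjusted p = 0.00427).

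Of the remaining ones, AN2186, AN6319 and AN4575 had log2 fold changes of 2.45, 2.34 and 2.14. AN4575 was uneven, at 88.8, 38.8 and 18.5 scaled RPKM in the libraries labelled Δ*atfB*, against 11.2, 10.9 and 8.68 in the control. AN6847, AN7482 and AN6460 had log2 fold changes of 1.77, 1.62 and 1.57. AN9378, a predicted oxidoreductase, rose as well and was at 297, 295 and 411 scaled RPKM, against 107, 107 and 138 in the control. AN11100 rested on replicate 3, with 6.38, 8.13 and 23.6 scaled RPKM, against 3.07, 3.89 and 4.14 in the control. Its log2 fold change of 1.64 (edgeR adjusted p = 0.0105) became 1.12 without labelled replicate 3 (edgeR adjusted p = 0.0705), and it also missed the limit without control replicate 3 (edgeR adjusted p = 0.0506). AN6460 is listed among the carbohydrate-active enzymes.

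Weakly transcribed genes under that level included larger changes. The largest was in AN11207, picked after its values were seen (log2 fold change 5.04, edgeR adjusted p = 5.29e-05), at a mean of 7.71 scaled RPKM in the libraries labelled Δ*atfB*, against 0.219 in the control. Also among them, *lacpC* (AN1577), a predicted transporter of the lactose list, had 2.85, 3.11 and 9.08 scaled RPKM in the libraries labelled Δ*atfB*, against 0.794, 0.797 and 1.47 in the control. The groups were separate (log2 fold change 2.21, edgeR adjusted p = 0.0106), but the call was lost without labelled replicate 3 (edgeR adjusted p = 0.066) or control replicate 2 (edgeR adjusted p = 0.0614). Of 62 lists of secondary metabolite gene clusters with a tested gene, 8 held a called one, that of AN9005 included. In all 9 of their 377 tested genes were called (2.39%), close to the 1.97% over all genes. AN0020 was the most abundant of the other lowered members, at 21.6, 21.6 and 27.2 scaled RPKM in the libraries labelled Δ*atfB*, against 86.2, 78.8 and 118 in the control. In the cluster of asperlin, a polyketide, 2 of 4 tested genes rose, AN9219 and AN9220, in a pattern carried by batch 1. AN9219 had 33, 56 and 1 reads in the libraries labelled Δ*atfB*, against 0, 1 and 2 in the control, and AN9220 had 33, 42 and 1, against 0, 2 and 0. Neither call held without labelled replicate 1 or 2 or control replicate 1 or 2 (edgeR adjusted p from 0.0688 to 0.311).

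Several downregulated genes lay side by side in the gene order of the ASM1142v1 assembly, taken over tested genes alone. Any untested gene between 2 of them was skipped. Of 137 downregulated genes with a place in that order, 35 (25.5%) had a downregulated gene next to them, in 19 adjacent pairs, while 2.87% of all 9351 placed and tested genes had such a neighbour. The upregulated genes did so in 9 of 54 cases (16.7%, in 5 pairs), against 1.12% of all placed and tested genes. One run joined *dlpA*, AN5325 and AN5326, with log2 fold changes of −1.34, −5.85 and −5.69. Another joined AN3966, AN3967 and AN3968, at −4.63, −1.15 and −2.20. Further pairs were AN5653 and AN5654 at −1.73 and −2.62, AN8335 and AN8336 at −2.37 and −2.50, and the catalase gene AN8553 with AN8554. Among upregulated genes AN3886 and AN3887 were adjacent, at 2.08 and 2.44. Whether neighbours share reads through overlapping transcripts was not tested, since the counting is not stated to use strand.

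Untreated conidia were compared in the same way, on separate libraries. There 454 genes were called, 4.48% of those tested, with 346 lower (3.41%) and the others higher (1.06%). The number lower was 229 without untreated control replicate 1, and the number higher 54 without it, 69 without untreated labelled replicate 2 and 176 without untreated control replicate 3. Of the 144 genes that fell on MSB, 71.5% also fell in untreated conidia, where they made up 29.8% of the genes lower, and none rose. Of the 56 that rose on MSB, 27 also rose in untreated conidia (48.2% and 25% of the 2 sets). Over all 10143 genes the 2 sets of log2 fold changes had a correlation of r = 0.355, a description only, since genes are not independent replicates. AN12038 had 1.04, 0.547 and 0.532 scaled RPKM in untreated conidia labelled Δ*atfB*, against 163, 155 and 170 in the untreated control. There *cetA* stood at 3319, 2307 and 3427, against 28538, 24949 and 27264, with a log2 fold change of −3.18 beside −2.46 on MSB.

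A test of the label by MSB interaction found no gene past the limits (0%), with 1053 genes at an unadjusted p below 0.05 and a smallest adjusted p of 0.0627 in edgeR. DESeq2 called 33 higher and 13 lower for the same term, and edgeR called 22 higher and 36 lower when untreated control replicate 3 was left out, or 5 higher and 11 lower without MSB control replicate 3. Leaving out any other single library gave at most 3 higher and 1 lower. Some genes with unlike values in the 2 treatments are given side by side. AN3996, raised on MSB, had 11.2, 38.4 and 10.5 scaled RPKM in untreated conidia labelled Δ*atfB*, against 25.8, 13.3 and 19.4 in the untreated control, with overlap (log2 fold change −0.09, interaction 3.15, edgeR adjusted p = 0.199). AN4575 stood at a log2 fold change of 2.14 on MSB and −0.80 without (interaction 2.94, edgeR adjusted p = 0.093). Among starch genes, the α-glucosidase gene *agdB* stood at 1.13 on MSB and −1.91 without (interaction edgeR adjusted p = 0.093), and the α-amylase gene *amyB* 0.93 and −2.83 (interaction edgeR adjusted p = 0.247). The *agdB* and *amyB* genes fell in untreated conidia and were not called on MSB, and the difference between the treatments did not pass the test.

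**Figure D5:**
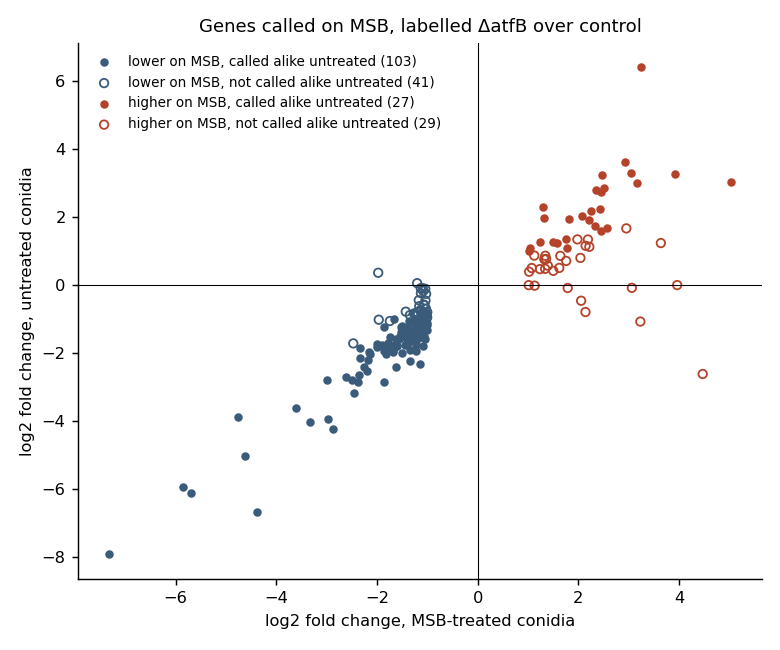
edgeR log2 fold changes, labelled Δ*atfB* over control, of the 200 genes called in MSB-treated conidia (horizontal axis) and their values in untreated conidia (vertical axis), 1 point per gene. Filled points mark the genes called in the same direction in untreated conidia, 71.5% of the lower and 48.2% of the higher ones, and open points the others.

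Mycelia on MSB shared few of these calls. In mycelia labelled Δ*atfB* 281 of 9199 genes were called against the control (3.05%), 197 higher (2.14%) and 84 lower (0.913%). Of the genes lower in conidia that were also tested in mycelia, AN6798 alone fell there and 3 rose. Of the 56 genes higher in conidia 37 were tested, of which 2 rose and 3 fell, and over the 9091 genes tested in both cell types the correlation of the log2 fold changes was 0.086. One of the 2 was AN3996, with 30.5, 26.4 and 29.1 scaled RPKM in mycelia labelled Δ*atfB*, against 6.06, 10.6 and 4.26 in the control (log2 fold change 2.04). AN8639, called lower in conidia, was called higher in mycelia (log2 fold change 1.26, edgeR adjusted p = 0.0435). It had 8.23, 4.20 and 2.11 scaled RPKM in mycelia labelled Δ*atfB*, against 1.51, 3.54 and 0.886 in the control. These mycelial groups overlapped at a low level, and the conidial call of AN8639 was lost without single libraries, as given above. The *atfB* transcript was scarce in mycelia of both strains, at 1.22, 0.489 and 0.735 scaled RPKM, against 1.39, 1.55 and 1.51 in the control (log2 fold change −0.87, edgeR adjusted p = 0.0258).

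The other MSB-treated mutants are set beside these values with the reminder that all 3 comparisons use the same 3 control libraries. Δ*atfA* conidia had 2825 genes called (27.9%) and Δ*atfA*Δ*atfB* conidia 3045 (30%). AN12038 had no read in any library of Δ*atfA*. AN5325 averaged 5.12 scaled RPKM in the libraries labelled Δ*atfB*, 1.00 in Δ*atfA* and 1.32 in Δ*atfA*Δ*atfB*, against 295 in the control. The catalase gene AN8553 averaged 1169, 15.9 and 21.8 in the same order, against 3960 in the control, and *cetL* 1231, 3.94 and 4.28, against 3916. In these 3 genes, picked as examples, the libraries labelled Δ*atfB* lay between the control and the other mutants. Lying below the control followed from the genes having been called lower. How many lowered genes lay in between was not counted. The *cetA* gene averaged 1636, 1965 and 1540 scaled RPKM, against 8767 in the control.

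Among upregulated genes picked as examples, AN7053, AN9310 and AN9378 stood below the control in the other mutants. How many of the upregulated genes did so was not counted. Over all genes tested, 14.4% were called lower in Δ*atfA* and 15.1% in Δ*atfA*Δ*atfB*. AN7053 averaged 66.7 scaled RPKM in the libraries labelled Δ*atfB*, 0.211 in Δ*atfA* and 0.117 in Δ*atfA*Δ*atfB*, against 3.86 in the control. AN9310 averaged 559, 0.444 and 0.465, against 102.7, and AN9378 334, 9.69 and 9.38, against 117. AN1670 averaged 196 in the libraries labelled Δ*atfB*, and stayed near the control's 33.3 in the other mutants, at 30.1 and 30.4.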

How the data were processed

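RNA-seq reads of *A. nidulans* conidia were analysed from the gene-level values deposited by the authors. After FastQC they mapped single-end reads with HISAT2 2.1.0 (reference genome FGSC A4) and used DESeq2 1.24.0 for their own tests. The counting tool and use of strand are not given in the sources used here. The deposited table holds read counts for 10988 genes in 48 libraries, and RPKM that the authors computed with edgeR. RPKM recomputed from count, gene length and library total differed by a relative 3.1e-14 at most.

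Counts of the 24 conidial libraries were fitted in 1 model of 8 groups plus batch with edgeR 4.0.16 (R 4.3.3; quasi-likelihood F test, relative log expression factors), for genes with at least 0.5 RPKM in 3 libraries, with Benjamini-Hochberg adjustment over all 10143 genes. SE is the log2 fold change divided by the square root of F. Mycelia were fitted in the same way without batch, over 9199 genes. On simulated counts the fit recovered 89.5% of 200 changed genes and called 3 unchanged ones. The simulation held no batch effect, and its changes were all set beyond the fold limit. Whether these figures hold for the deposited counts, for weak genes or for fold changes near the limit was not tested. Alternatives were DESeq2 1.42.0, TMM, limma 3.58.1 on log2 RPKM with a pseudocount of 0.1 or 1, other filters, fewer libraries, batch 1 alone, no batch term and a replicate block. A limma fit on scaled RPKM was added after the data had been seen. Same-numbered libraries of both groups deviated together (r = 0.224, 0.236 and 0.341). Different-numbered libraries of batch 1 did so more weakly (r = 0.123 and 0.08). Replicate 3 alone was in batch 2, so for it batch and a pairing by number cannot be told apart. The main fit took batch but no pairing, and the permutation tests of *atfB* were unpaired. A pairing by number entered only as the replicate block.

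Named genes were *atfB*, *atfA*, AN6798 and the neighbours of *atfB* and AN6798 by number, the 12 most raised and 12 most lowered genes with groups apart and a mean of 10 RPKM, up to 4 called members of each list with the largest changes, members of short lists, genes the study names, and those called alike in other comparisons. Genes named only as neighbours of called genes (AN3967, AN8336, AN3886 and others) were chosen after their values were seen. Members and lists were chosen with earlier results of these data known. Gene names follow the study's supplementary lists and ASM1142v1, in which 10037 of the gene IDs were found, and that assembly gave gene order alone. Depth was 8426329 to 22425861 counts in the 6 libraries, and with 3 libraries per group the spread between them limits the precision of abundant genes.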

Additional observations from a re-analysis of the deposited data

How the results depend on the processing

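Of the genes chosen by the naming rule, the 51 called ones kept their direction under every alternative, with 816 of 906 values on the same side of the limits, 90 no longer past them and 32 genes called throughout. Of the 156 that were not called, 50 changed sign in some alternative and 26 were called in one. Many of the 51 called genes were picked for large changes or separate groups in these same libraries. Their kept direction therefore says little about the other called genes. Counts on MSB, for 56 genes higher and 144 lower, were 189 and 337 with batch 1 alone, and 186 and 57 or 95 and 68 with limma on deposited RPKM at a pseudocount of 0.1 or 1, which leaves out the scaling factors. Fitting 12 or 6 libraries gave 86 or 153 higher. Leaving out 1 library gave 26 to 67 higher and 78 to 188 lower. TMM gave 62 and 122, DESeq2 80 and 166, and limma on scaled RPKM 64 and 123. With the replicate block, 54 were higher and 134 lower, and of the 51 genes only AN7907, a member of the F9775 secondary metabolite cluster list, changed its call (log2 fold change −1.54, edgeR adjusted p = 0.0567). In untreated conidia the numbers higher and lower were 291 and 557 in batch 1, 570 and 192 in limma at 0.1, 244 and 165 at 1, and 54 to 176 and 229 to 413 with 1 library left out. For the interaction, with 0 higher and 0 lower, DESeq2 gave 33 and 13, batch 1 gave 90 and 116, limma at 1 gave 4 and 1, and leaving out 1 library gave 0 to 22 and 0 to 36. In mycelia 2.14% of the genes tested were higher and 0.913% lower, against 1.17% and 0.391% in limma at 1, and 1.61 to 2.88% and 0.675 to 0.838% with 1 library left out. The mean *atfB* level was 59.9 to 83.7% of the control with 1 library left out, 64% in batch 1 and 59.9% on scaled counts. The cause of these shifts was not tested. Depth limited genes with a few reads, such as AN5326, AN9219 and AN2672.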
